A study of Mus musculus with 2 samples.

Results

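C1q-positive Arg1-high macrophages were 124 of the 12018 cells measured in 4T1 mammary tumours with a targeted single-cell panel. A cell belonged to them when it held at least 5 molecules of C1qa and C1qb summed, at most 1 molecule of Cd3d, Cd3e and Cd3g summed, S100a8 below a fraction of 0.05 and Arg1 at or above a fraction of 0.01 of its molecules over the 396 genes shared by all tables. The members were therefore chosen on their measured C1q, CD3, S100a8 and Arg1 molecules, and the values of those genes are given as a description. The 103 cells that met the first 3 conditions with Arg1 under 0.01 are called Arg1-low C1q cells. Together the 227 C1q cells split into 124 Arg1-high and 103 Arg1-low cells.

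The study treated female BALB/c mice carrying orthotopic tumours of 4T1, a mouse mammary carcinoma line syngeneic to that strain, with antibodies against PD-1, Siglec-E or both, or with a rat IgG2a isotype control. All animals received 4T1 cells in the mammary fat pad at 8 weeks of age, and the arms were formed after 7 days, when tumours measured about 70 mm3. There were 6 mice in each of the 4 arms, and 2 tumours per arm were dissociated for single cells. Each of the 2 samples was 1 BD Rhapsody cartridge loaded with 2 arms under separate sample tags. The anti-PD-1 pool held the anti-PD-1 arm and the combination arm under tags 3 and 4. The no-anti-PD-1 pool held the isotype control arm and the anti-Siglec-E arm under tags 1 and 2. Since the arm under each tag cannot be read from the labels, the tag number stands for the population, in the order 3, 4, 1 and 2 unless stated. All 4 arms shared the host strain, the tumour line, removal of dead and red blood cells, and recombination of EPCAM-positive with EPCAM-negative cells at 1 to 4. Cells of the tumours in an arm were not told apart, so each tag is 1 population, treatment with anti-PD-1 and cartridge cannot be told apart, and no test was possible.

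C1q is the recognition component of the classical complement pathway and in tissues is made mainly by macrophages. Arginase 1, encoded by Arg1, hydrolyses arginine to ornithine and urea, and tumour macrophages that express it deprive T cells of arginine. Macrophages also carry MHC class II molecules, which present peptides to CD4 T cells, and heme oxygenase 1, encoded by Hmox1, which degrades heme and is induced by heme and oxidative stress.

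The members came from every tag, with 66 cells in tag 3, 8 in tag 4, 35 in tag 1 and 15 in tag 2. Their median total was 7218, 5800, 6027 and 6073 shared-gene molecules per cell, against 4087, 2951, 3675 and 3572.5 in Arg1-low C1q cells and 1309.5 to 1405.5 in the 7965 cells with S100a8 at or above 0.05. Arg1-high cells were thus the deeper of both C1q classes in every tag, which is why levels below are fractions of molecules. Levels are given as counts per 1000000 shared-gene molecules (CPM), summed over the cells of a class in a tag. Whole-tag totals ran from 2993684 to 12416134 molecules. The cartridges shared 37 cell indexes, none of them a member and none with identical counts.

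The label names C1qa, C1qb, Arg1, Trem2 and Mmp12 as markers. The rule used C1qa, C1qb and Arg1, so only Trem2 and Mmp12 bear on the label. Trem2, a lipid-sensing receptor of macrophages, stood at 2929, 2371, 3259.8 and 3763 CPM in Arg1-high cells, against 2445, 1462, 2089 and 2484 CPM in Arg1-low cells. Mmp12, the macrophage elastase, stood at 25434, 25168, 25051 and 40689.6 CPM in Arg1-high cells, against 13781, 20280.3, 12315 and 11726 CPM in Arg1-low cells. Both were higher in Arg1-high cells in all 4 tags. After every cell was thinned to 1000 molecules, Trem2 was detected in 92.1, 66.7, 85.3 and 93.3% of members. It was detected in 0.853, 1.07, 1.43 and 1.67% of cells with S100a8 at or above 0.05 (cells with high S100a8). These cells were taken as the background of free RNA, but for some genes their level cannot be read as free RNA alone. Nos2, for example, stood at 1608, 1704 and 2130 CPM in them in tags 3, 4 and 2, against 254, 95.2 and 180 CPM in Arg1-low C1q cells. The unthinned shares for Trem2 were 100, 100, 100 and 100% of members and 0.921, 1.22, 2.36 and 2.75% of those background cells. Mmp12 was detected in 81.0, 83.3, 73.5 and 86.7% of thinned members, and in 2.07, 1.957, 5.07 and 5.77% of thinned background cells. C1qb was detected in 98.4, 100, 94.1 and 93.3% of thinned members, and in 1.28, 0.712, 2.39 and 3.64% of thinned background cells. Thinning left out 3, 2, 1 and 0 members and 5, 4, 4 and 1 Arg1-low cells as too shallow. Trem2 and Mmp12 were thus detected in a far larger share of members than of background cells in each tag, while the rule itself required C1q. Both were also common in Arg1-low cells. Unthinned, at least 1 Trem2 molecule was seen in 41 of 44, 7 of 10, 29 of 35 and 10 of 14 of them. For Mmp12 this was 33 of 44, 5 of 10, 25 of 35 and 10 of 14. Members held Mmp12 in 54 of 66, 7 of 8, 31 of 35 and 15 of 15 cells. Neither gene was at least 1.5-fold higher in Arg1-high than in Arg1-low cells in each of the 4 tags. The general macrophage genes Cd68 and Mrc1, measured in tags 3, 4 and 2, were also present, at 3865, 4807 and 4956 CPM in Arg1-high cells of tags 3, 4 and 2, against 3529.8, 3403 and 4326 CPM in Arg1-low cells for Cd68.

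C1q itself was lower in the Arg1-high class. C1qa stood at 3833, 2872, 7089 and 5638 CPM in Arg1-high cells, against 4938, 4619.8, 9534 and 12566 CPM in Arg1-low cells. C1qb stood at 8698, 6565, 10132 and 7444 CPM in Arg1-high cells, against 10811, 11824, 12276 and 15579.6 CPM in Arg1-low cells. Both were lower in Arg1-high cells in every tag. The C1q minimum was set in molecules and not as a fraction. Arg1-high cells were the deeper class, so they could pass it with a smaller share of C1q. Their Arg1 molecules also count in the total. The values therefore describe cells chosen on these genes. In the 18 alternatives of the closing section, among them a C1q fraction as minimum, the mean log2 ratio stayed negative. It ran from -0.78 to -0.26 for C1qa and from -0.88 to -0.11 for C1qb. Every alternative still chose cells on C1q and Arg1. A minimum of molecules per gene or a 2-fold rule changes no ratio. The range is therefore a description as well and tests nothing. Per cell, C1qa and C1qb together made up a median of 1.45, 1.10, 1.77 and 1.13% of molecules in Arg1-high cells, against 1.75, 1.69, 2.12 and 3.15% in Arg1-low cells.

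**Figure D1:**
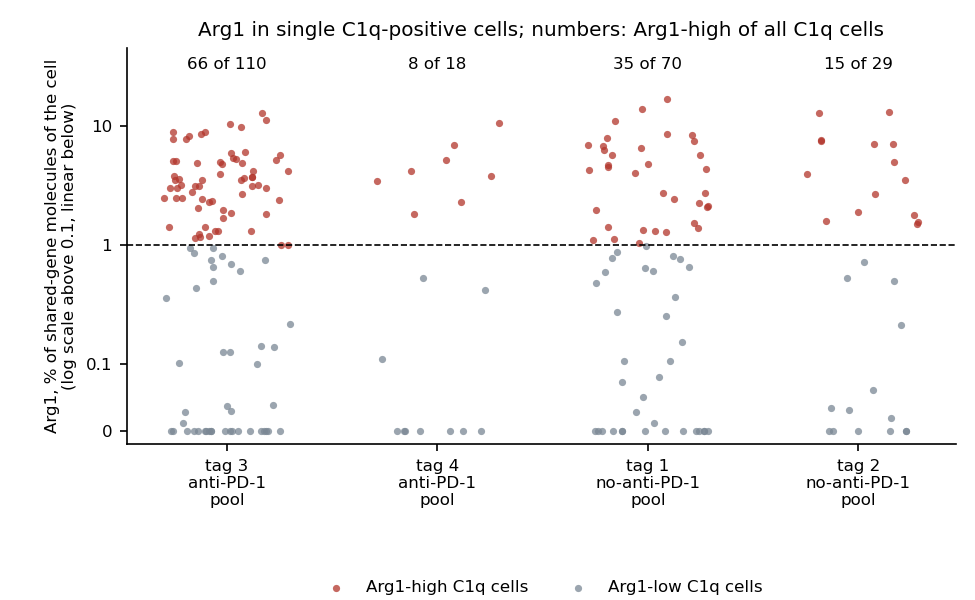
Arg1 as a percentage of the shared-gene molecules of each C1q cell (vertical axis, logarithmic above 0.1% and linear below), by tag, with Arg1-high cells in red, Arg1-low cells in grey and the 1% threshold dashed. In tags 3 and 1 cells lie close to the threshold on both sides, whereas tags 4 and 2 have none between 0.727 and 1.504%; in all, 53 of the 227 cells lie between 0.5 and 2%.

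The threshold cuts through the range of Arg1 per cell in tags 3 and 1, while tags 4 and 2, with few cells, have no cell close to it. Among members Arg1 had a median of 3.34, 4.01, 4.24 and 3.99% of molecules in tags 3, 4, 1 and 2, and the lowest and highest members held 1.005 and 16.8%. The lowest members stood at 1.005 and 1.01% in tag 3, 1.83 and 2.30% in tag 4, 1.04 and 1.11% in tag 1, and 1.504 and 1.55% in tag 2. The Arg1-low cells nearest to the threshold stood at 0.949 and 0.941%, 0.527 and 0.418%, 0.987 and 0.882%, and 0.727 and 0.527%. In all, 31 members lay between 1 and 2%, and 22 Arg1-low cells between 0.5 and 1%, while 47 C1q cells held no Arg1 molecule. The C1q threshold touched fewer cells, since 118 members had 10 or more C1q molecules and 6 had 5 to 9, and 10 further cells with 3 or 4 met every other condition. Arg1 was not restricted to C1q cells: 373 cells of any kind held at least 1% Arg1.

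Arg1-high cells made up 60% (66 of 110 cells, exact Clopper-Pearson 95% interval 50.2 to 69.2%) of C1q cells in tag 3 and 44.4% (8 of 18, 21.5 to 69.2%) in tag 4. In the no-anti-PD-1 pool they made up 50% (35 of 70, 37.8 to 62.2%) in tag 1 and 51.7% (15 of 29, 32.5 to 70.6%) in tag 2. The pool means were 52.2% with anti-PD-1 and 50.9% without, a difference of 1.36 percentage points, and all 4 intervals overlapped. Of all cells, members were 0.997 and 0.551% in tags 3 and 4, against 1.44 and 0.990% in tags 1 and 2. Of cells with S100a8 under 0.05 they were 3.204 and 1.26% in tags 3 and 4, against 4.06 and 3.03% in tags 1 and 2. The direction of the pool difference thus turned with the denominator. With 1 cartridge per pool, a difference in the share of Arg1-high cells could not be tested, whatever the number of cells. Intervals cover counting error only.

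Arg1-high cells were next set beside Arg1-low C1q cells across the 264 genes with at least 30 molecules over both classes, leaving out the 7 genes of the rule. A gene passed when it was at least 1.5-fold higher or lower in each of the 4 tags. Arg1 chose these classes, so the contrast describes the members and tests nothing. As higher, 2 genes passed, which is 0.758% of the measured genes, and as lower 5 passed, which is 1.89%. The median log2 ratio over all genes was -0.33, and at any size 13 genes were higher and 84 lower in all 4 tags. Under TMM scaling (trimmed mean of M values) the median was 0.04, and 5 genes passed as higher and 3 as lower, so that the share of higher genes among those that passed was 62.5%, against 28.6% with CPM.

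The genes that passed as higher were Tnfrsf9 and Ccl6. Tnfrsf9 encodes 4-1BB, a costimulatory receptor of the TNF receptor family. It stood at 2252, 4878, 2748 and 2097 CPM in Arg1-high cells, against 673, 444, 1134 and 274 CPM in Arg1-low cells. The Poisson 95% interval of tag 3 was 2115 to 2396 CPM in Arg1-high cells, against 567 to 794 CPM in Arg1-low cells. The summed level was higher in Arg1-high cells in every tag, and the mean log2 ratio was 2.35. Single cells of the classes overlapped. In tag 3 they ranged from 0 to 2.79% of molecules in Arg1-high cells, against 0 to 0.891% in Arg1-low cells. At least 1 Tnfrsf9 molecule was seen in 40 of 66, 4 of 8, 25 of 35 and 10 of 15 Arg1-high cells, against 18 of 44, 5 of 10, 12 of 35 and 4 of 14 Arg1-low cells. In tag 4 the share of cells was thus 50% in both classes, and the higher level there rests on 4 cells. Its level in cells with high S100a8 was 116 to 209.8 CPM. Ccl6 encodes a CC chemokine of mouse myeloid cells. It stood at 18364.9, 20882, 20919 and 27456 CPM in Arg1-high cells, against 9784, 6238, 7535 and 1789.9 CPM in Arg1-low cells. Its mean log2 ratio was 2.02, and cells with high S100a8 lay between 5161 and 6530.3 CPM, below the members of every tag.

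Among the 5 lower genes Cxcl9 had the largest ratio. Cxcl9 encodes an interferon-gamma-induced chemokine that attracts Cxcr3-bearing T cells. It stood at 359, 205, 1636 and 256 CPM in Arg1-high cells, against 1800.2, 3263, 5318 and 4639 CPM in Arg1-low cells. The mean log2 ratio was -3.05, and Cxcl9 was seen in 23, 3, 9 and 5 Arg1-high cells, against 23, 5, 17 and 8 Arg1-low cells. Without the single cell richest in Cxcl9 the log2 ratio was -2.92. Havcr2 encodes the inhibitory receptor Tim-3. It stood at 908, 866, 578 and 513 CPM in Arg1-high cells, against 1456, 1436, 1301 and 1699 CPM in Arg1-low cells, a mean log2 ratio of -1.08. Mcm4 encodes a subunit of the replicative DNA helicase. It stood at 421, 274, 287 and 256 CPM in Arg1-high cells, against 721, 1566, 775 and 603 CPM in Arg1-low cells, a mean log2 ratio of -1.49. Klrk1, which encodes the activating receptor NKG2D, and Irak1, a kinase of Toll-like and interleukin-1 receptor signalling, passed on few molecules. Klrk1 had 20, 1, 9 and 1 molecules in Arg1-high cells, against 29, 4, 29 and 4 in Arg1-low cells, with a mean log2 ratio of -2.22. Irak1 had 13, 1, 1 and 2 molecules in Arg1-high cells, against 12, 3, 5 and 3 in Arg1-low cells, with a mean log2 ratio of -1.76. All 7 genes still passed without their richest cell, and Havcr2 and Mcm4 did not pass with TMM scaling.

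**Figure D2:**
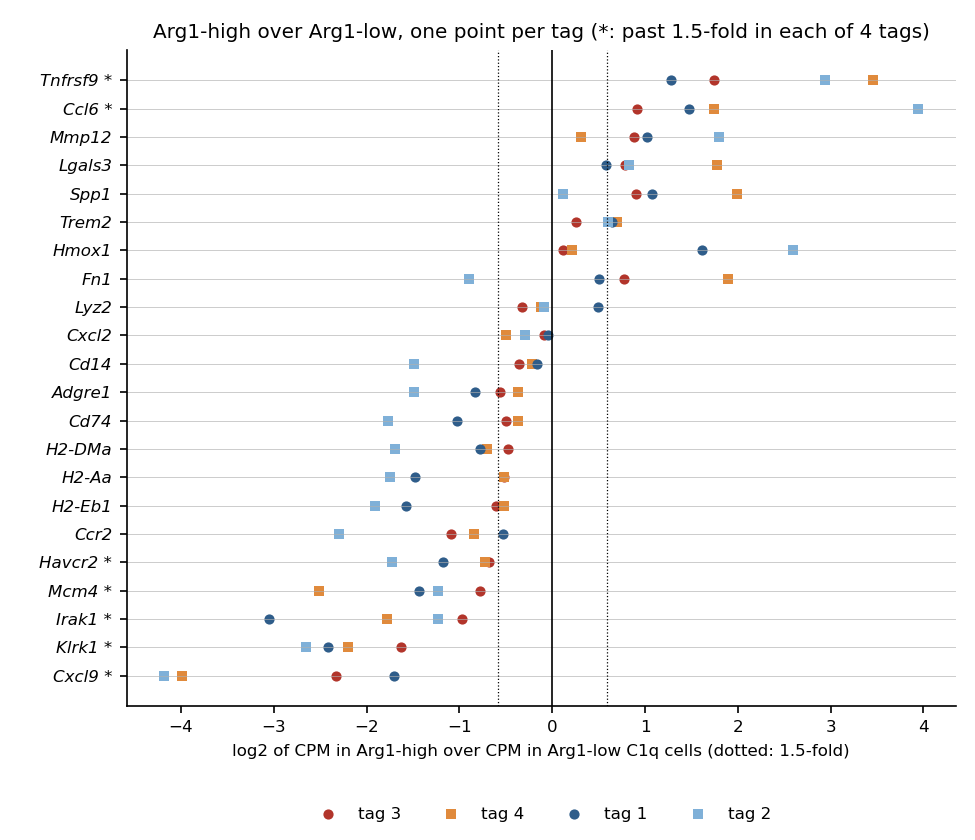
Log2 ratio of CPM in Arg1-high over CPM in Arg1-low C1q cells for 22 genes, with 1 point per tag (red and orange for tags 3 and 4, dark and light blue for tags 1 and 2) and dotted lines at 1.5-fold. Tnfrsf9, Ccl6 and the 5 lower genes lie outside the dotted lines in every tag, whereas the class II genes lie further left in tags 1 and 2 than in tags 3 and 4.

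The role lists are described by how many measured members passed and by their median log2 ratio, beside the median of -0.33 over all genes. In the scavenger and lipid list 0 of 9 genes passed in either direction, with a median of 0.55. Its most abundant genes were Spp1, which encodes osteopontin, and Lgals1, which encodes galectin-1. Spp1 stood at 38202, 50153 and 34571 CPM in Arg1-high cells of tags 3, 4 and 1, against 20490.3, 12659 and 16377 CPM in Arg1-low cells. In tag 2 it stood at 25767 CPM in Arg1-high cells, a log2 ratio of 0.12. It was higher in Arg1-high cells in all 4 tags but by under 1.5-fold in tag 2, with a mean log2 ratio of 1.02. Lgals1 stood at 29401, 12789, 36245 and 56148 CPM in Arg1-high cells, against 18275, 8718, 38995 and 28438 CPM in Arg1-low cells, higher in tags 3, 4 and 2 and lower in tag 1. In the matrix and protease list 0 of 7 genes passed, with a median of 0.57. Mmp12 in that list had a mean log2 ratio of 1.00 and missed the rule through tag 4. Fn1, which encodes fibronectin, stood at 21158, 35175, 19741 and 9319 CPM in Arg1-high cells, against 12377, 9475, 13904 and 17406 CPM in Arg1-low cells, higher in tags 3, 4 and 1 and lower in tag 2. Under TMM scaling Mmp12, Spp1 and Lgals3, the last of which encodes galectin-3, passed as higher. Lgals3 is named because it passed in that alternative.

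In the class II antigen presentation list 0 of 6 genes passed, with a median of -1.11. H2-Aa, the class II A alpha chain, stood at 51800.1, 56604, 22167 and 17112 CPM in Arg1-high cells, against 74216, 80912, 61760 and 57259 CPM in Arg1-low cells, a mean log2 ratio of -1.06. H2-Eb1, the E beta chain, stood at 27308, 30160, 7027 and 5417 CPM in Arg1-high cells, against 41406, 43092, 20894 and 20328 CPM in Arg1-low cells, a mean log2 ratio of -1.15. Both were lower in Arg1-high cells in every tag, and the ratio was under 1.5-fold for H2-Aa in tags 3 and 4 and for H2-Eb1 in tag 4. In the surface gene list 0 of 14 passed, with a median of -0.68. Its most abundant genes, Lyz2 for lysozyme and Cd14 for the lipopolysaccharide co-receptor, had mean log2 ratios of -0.01 and -0.56. The chemokine receptor gene Ccr2, which marks blood-derived monocytes, had a mean log2 ratio of -1.19, and Adgre1, which encodes F4/80, one of -0.81. Both are shown in the plot of ratios because their values stood out. In the proliferation list 0 of 7 passed, with a median of -0.73.

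The lists on inflammation had medians close to that of all genes, with single members far from it. In the chemokine list Cxcl9 passed as lower and no gene as higher among 11, with a median of -0.23. Cxcl2 and Cxcl1, both neutrophil attractants, were its most abundant genes. Cxcl2 stood at 38805, 52569, 41838 and 20141 CPM in Arg1-high cells, against 41157, 74074, 43249 and 24767 CPM in Arg1-low cells. Cxcl1 stood at 13739, 12493, 23516 and 14689 CPM in Arg1-high cells, against 13882, 2532, 16531 and 3196 CPM in Arg1-low cells, higher in tags 4, 1 and 2 and slightly lower in tag 3. In the inflammatory cytokine list 0 of 12 passed, with a median of -0.30, and Il1a and its antagonist Il1rn had mean log2 ratios of 0.19 and -0.22. In the interferon list Cxcl9 alone of 8 passed, with a median of -0.56, and the antiviral gene Ifitm3 had a ratio of -0.28. In the costimulation list Havcr2 alone of 10 passed, with a median of -0.51, and Cd274, which encodes PD-L1, had a ratio of -0.38 and Lgals9, which encodes galectin-9, one of -0.28. Of the immediate early genes 0 of 11 passed, with a median of -0.15, and Btg1 and Fosb had ratios of -0.10 and -0.76. With TMM scaling the medians of the chemokine, inflammatory and immediate early lists turned to 0.14, 0.07 and 0.23.

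The remaining lists were short or carried by single genes. In the arginine list 0 of 9 measured genes passed, with a median of -0.41. Arg2, the mitochondrial arginase, stood at 2015, 1983, 2992 and 3471 CPM in Arg1-high cells, against 1910.1, 2062, 1762 and 1059 CPM in Arg1-low cells, and Il4ra, the interleukin-4 receptor chain, had a mean log2 ratio of -0.53. In the complement list 0 of 3 passed, with a median of 0.22, and the central component C3 stood at 2739, 4901, 8202 and 1386 CPM in Arg1-high cells, against 3319, 2479.6, 3056 and 3324 CPM in Arg1-low cells, with no shared direction. Fcna encodes ficolin A, a lectin of the complement system. It stood at 616, 729, 1736 and 2283 CPM in Arg1-high cells, against 716, 0, 557 and 54.8 CPM in Arg1-low cells. It was higher in tags 4, 1 and 2 and lower in tag 3. In the iron and hypoxia list 0 of 5 passed, with a median of 0.13. Fth1, the ferritin heavy chain, was among the most abundant transcripts, at 127118, 131172, 86557 and 108125 CPM in Arg1-high cells, against 128825, 128573, 76478 and 85861 CPM in Arg1-low cells. Hmox1 stood at 9319, 8822, 27516 and 45093 CPM in Arg1-high cells, against 8581, 7621, 8989 and 7452 CPM in Arg1-low cells. Its log2 ratio was 0.12 and 0.21 in tags 3 and 4, against 1.61 and 2.60 in tags 1 and 2.

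The pools were compared within the members across the 243 genes with at least 30 molecules in Arg1-high cells. To pass, a gene had to separate tags 3 and 4 from tags 1 and 2 by at least 1.5-fold between the closest values. As higher in the anti-PD-1 pool 7 genes passed, 2.88% of those measured, and as lower 19 passed, 7.82%. The pools did not overlap, at any size, for 101 genes, 41.6% of those measured, of which 29 were higher and 72 lower with anti-PD-1. The median log2 ratio was -0.24. With TMM scaling the median was -0.03, and 13 genes passed as higher and 12 as lower, a higher share of 52%, against 26.9% with CPM. Tag 4 holds 8 members, so each pool comparison rests on few cells. With 1 cartridge per pool the differences describe these libraries.

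Class II genes made up 4 of the 7 higher genes. H2-Eb1 stood at 27308 and 30160 CPM in the anti-PD-1 pool, against 7027 and 5417 CPM in the no-anti-PD-1 pool. The Poisson 95% intervals were 26825 to 27797 and 28557 to 31830.1 CPM with anti-PD-1, against 6708 to 7358 and 4936 to 5932 CPM without. The pools did not overlap, and the ratio of pool means was 4.62-fold, or 2.21 on the log2 scale. H2-Aa stood at 51800.1 and 56604 CPM in the anti-PD-1 pool, against 22167 and 17112 CPM in the no-anti-PD-1 pool, a log2 ratio of 1.46. Cd74, the invariant chain that guides class II molecules to the peptide-loading compartment, stood at 8288 and 9734 CPM in the anti-PD-1 pool, against 4791 and 2493 CPM in the no-anti-PD-1 pool, a log2 ratio of 1.31. H2-DMa, a chain of the peptide editor of class II, stood at 4458 and 4947 CPM in the anti-PD-1 pool, against 2799 and 1759 CPM in the no-anti-PD-1 pool, a log2 ratio of 1.05. After subtracting the median over all genes these values were 2.45, 1.70, 1.55 and 1.29. The whole list had 4 of 6 measured genes higher and 0 lower, with a median of 1.18. It was the list with the highest median of the 13 lists compared.

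H2-Aa and H2-Eb1 lie beside each other in the class II region of chromosome 17 (GRCm38, GENCODE M21), H2-Aa at chr17:34282744-34287823 on the minus strand and H2-Eb1 at chr17:34305867-34316674 on the plus strand. Class II promoters carry a Y box, an inverted CCAAT element. The 120 bases before the gene starts are shown because both genes passed as higher in the anti-PD-1 pool. Their log2 ratios differed, at 2.21 for H2-Eb1 and 1.46 for H2-Aa. Sequences are from RefSeq on GRCm38.p6, 5′ to 3′ on the strand of the gene, with CCAAT in either orientation in capitals.
H2-Aa, chr17:34287824-34287943, minus strand: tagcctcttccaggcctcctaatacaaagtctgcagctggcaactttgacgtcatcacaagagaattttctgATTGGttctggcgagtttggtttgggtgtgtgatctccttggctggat
H2-Eb1, chr17:34305747-34305866, plus strand: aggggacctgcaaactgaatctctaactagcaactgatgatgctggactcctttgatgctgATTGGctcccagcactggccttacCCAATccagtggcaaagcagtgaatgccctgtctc
The search used CCAAT and its reverse complement ATTGG and found 1 match before H2-Aa, starting at position -48 from the gene start, and 2 before H2-Eb1, at -59 and -35. The motif was common, since 6994 of 32851 windows of 120 bases before gene starts (21.3%) held it on either strand. A match describes the sequence and not a factor at work.

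Class II levels also differed between the pools outside the Arg1-high class, by less. In Arg1-low C1q cells H2-Eb1 stood at 41406 and 43092 CPM in the anti-PD-1 pool, against 20894 and 20328 CPM in the no-anti-PD-1 pool, a log2 ratio of 1.04, which also passed the rule. H2-Aa in Arg1-low cells stood at 74216 and 80912 CPM in the anti-PD-1 pool, against 61760 and 57259 CPM in the no-anti-PD-1 pool, a log2 ratio of 0.38, and Cd74 and H2-DMa had ratios of 0.41 and 0.44. These 3 genes did not pass in Arg1-low cells. The difference between both classes was not tested. The proportion of H2-Eb1 to H2-Aa molecules differed between the cartridges in every class. Per 100 H2-Aa molecules the members held 52.7 and 53.3 H2-Eb1 molecules with anti-PD-1, against 31.7 and 31.7 without. Arg1-low cells held 55.8 and 53.3 with anti-PD-1, against 33.8 and 35.5 without. Cells with high S100a8 held 49.9 and 50.9 with anti-PD-1, against 25.04 and 24.1 without. The ratio C1qa per 100 C1qb behaved likewise, at 44.1 and 43.8 in members with anti-PD-1, against 70.0 and 75.7 without, and at 46.5 and 49.6 with anti-PD-1, against 65.7 and 68.7 without, in cells with high S100a8. Cd74 per 100 H2-Aa in members was 16 and 17.2 with anti-PD-1, against 21.6 and 14.6 without, and so showed no such split. The source of the class II and C1q molecules in cells with high S100a8 was not tested. Their ratios may therefore not be independent of the macrophages on the same cartridge. The part of this shift in the class II result was not tested.

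**Figure D3:**
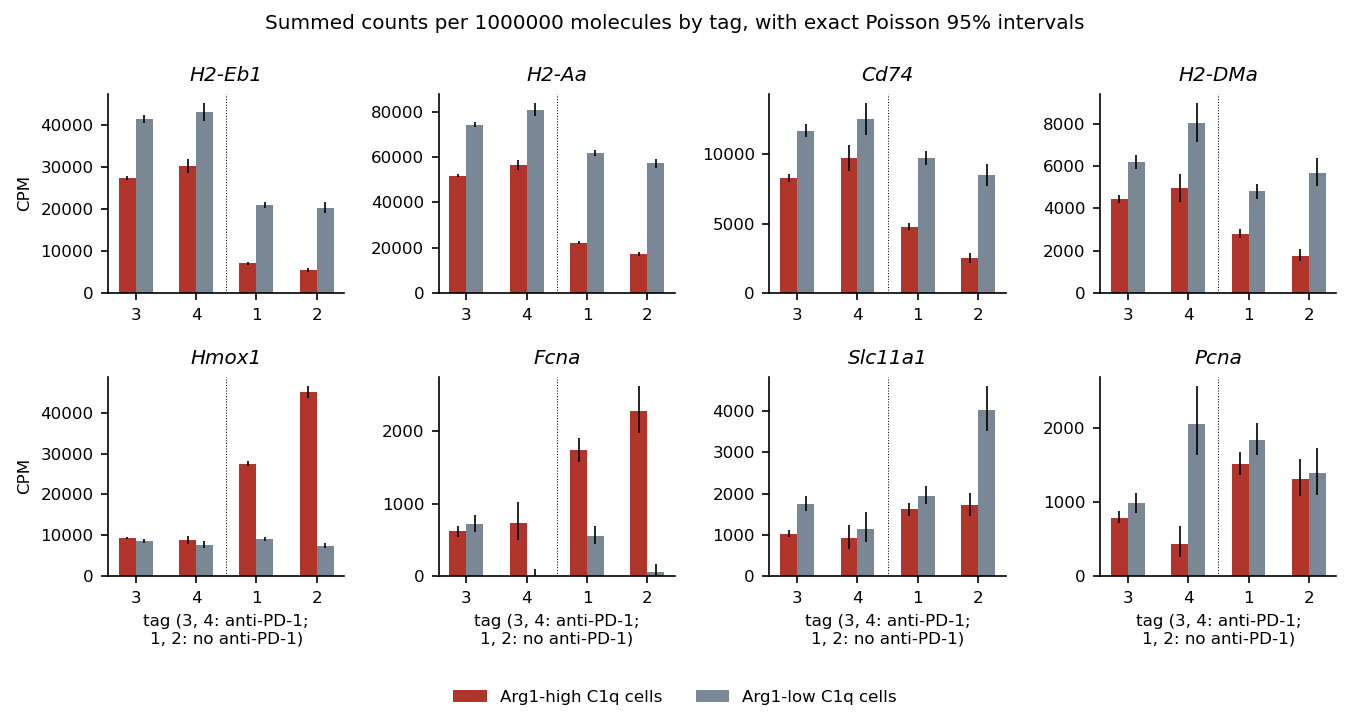
Summed CPM of 8 genes in Arg1-high (red) and Arg1-low (grey) C1q cells of tags 3 and 4 (anti-PD-1) and tags 1 and 2 (no anti-PD-1), with exact Poisson 95% intervals that cover counting error only. In Arg1-high cells the 4 class II genes are higher in tags 3 and 4, and Hmox1, Fcna, Slc11a1 and Pcna are higher in tags 1 and 2. Hmox1 in Arg1-low cells stays between 7452 and 8989 CPM.

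Single cells showed the same order. The class II sum of H2-Aa, H2-Eb1 and Cd74 had a median of 9.48 and 11.5% of molecules per member in tags 3 and 4, against 3.09 and 1.42% in tags 1 and 2. It reached at least 5% in 46 of 66 members of tag 3 (69.7%, exact Clopper-Pearson 95% interval 57.1 to 80.4%) and 6 of 8 of tag 4 (75%, 34.9 to 96.8%). In the no-anti-PD-1 pool it did so in 13 of 35 members of tag 1 (37.1%, 21.5 to 55.1%) and 4 of 15 of tag 2 (26.7%, 7.79 to 55.1%). Among Arg1-low cells the shares were 84.1 and 90% with anti-PD-1, against 60 and 64.3% without. The members of tags 1 and 2 thus had the lowest class II share of both classes, and their cells still ranged up to 16.6 and 18.2%.

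Hmox1 was lower with anti-PD-1 in the members. It stood at 9319 and 8822 CPM in the anti-PD-1 pool, against 27516 and 45093 CPM in the no-anti-PD-1 pool. The intervals were 9038 to 9607 and 7965 to 9747 CPM with anti-PD-1, against 26879.9 to 28164 and 43684 to 46536 CPM without. The pools did not overlap, the no-anti-PD-1 pool was 4.00-fold higher, and log2 of anti-PD-1 over no anti-PD-1 was -2.001, or -1.76 after subtracting the median over all genes. In Arg1-low cells Hmox1 stood at 8581 and 7621 CPM in the anti-PD-1 pool, against 8989 and 7452 CPM in the no-anti-PD-1 pool, a log2 ratio of -0.02. Cells with high S100a8 had 5057 and 5111 CPM with anti-PD-1, against 7537 and 7726 CPM without. Per member the median Hmox1 share was 0.407 and 0.554% in tags 3 and 4, against 1.76 and 2.17% in tags 1 and 2. A single cell of tag 1 held 12.2% of the Hmox1 molecules of members, and without it the log2 ratio was -1.88.

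**Figure D4:**
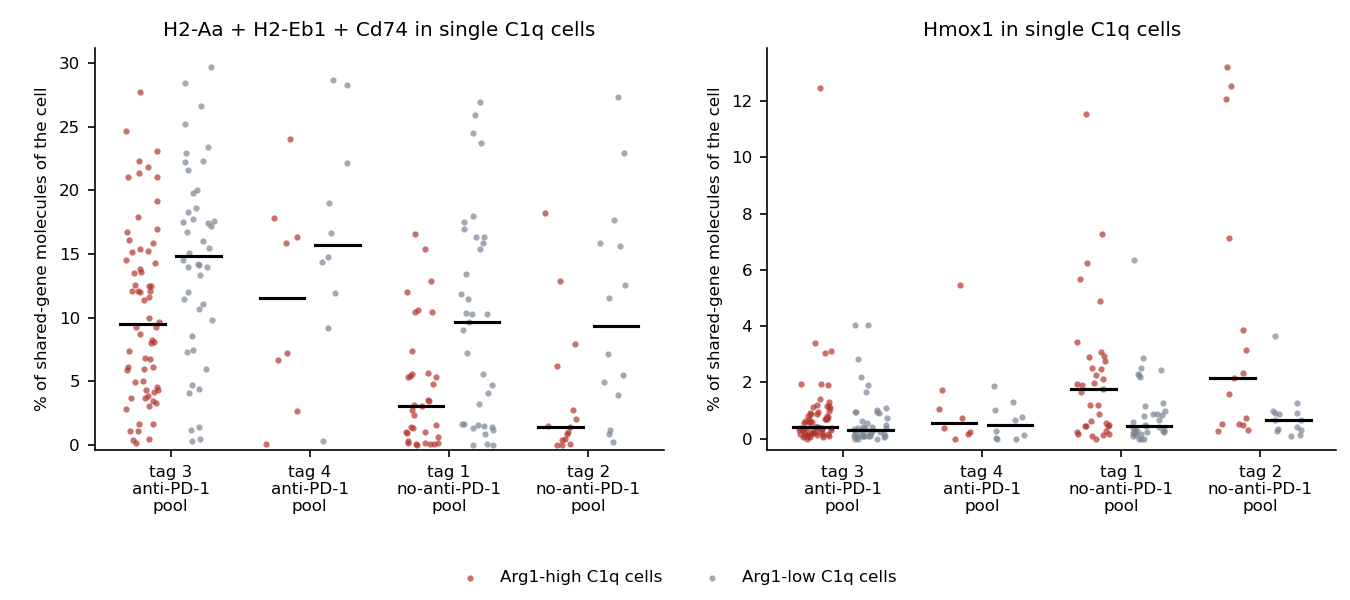
Percentage of shared-gene molecules per C1q cell for H2-Aa, H2-Eb1 and Cd74 summed (left) and for Hmox1 (right), by tag, with Arg1-high cells in red, Arg1-low cells in grey and black bars at the medians. The class II medians of members are 9.48 and 11.5% in tags 3 and 4, against 3.09 and 1.42% in tags 1 and 2, and the Hmox1 medians run the other way.

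Other genes of iron handling and complement were among the lower ones. Slc11a1, which encodes a metal transporter of phagosomes, stood at 1026 and 912 CPM in the anti-PD-1 pool, against 1616 and 1712 CPM in the no-anti-PD-1 pool, a log2 ratio of -0.78. With Hmox1 it made 2 of 5 measured genes of the iron list lower and 0 higher, with a list median of -0.36. Slc11a1 did not pass with TMM scaling, with 10 C1q molecules or without cells with epithelial markers. Fth1 in that list stood at 127118 and 131172 CPM in the anti-PD-1 pool, against 86557 and 108125 CPM in the no-anti-PD-1 pool and did not pass. Fcna stood at 616 and 729 CPM in the anti-PD-1 pool, against 1736 and 2283 CPM in the no-anti-PD-1 pool, a log2 ratio of -1.58, the only one of 3 complement genes that passed, with a list median of -0.33. C3 stood at 2739 and 4901 CPM in the anti-PD-1 pool, against 8202 and 1386 CPM in the no-anti-PD-1 pool, and 1 cell held 43.1% of its molecules in members. In Arg1-low cells the log2 ratio of Fcna was 0.23.

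In the arginine list Chil3 passed as higher and Il10 as lower among 8 genes, with a median of -0.24. Chil3, which encodes the chitinase-like protein Ym1, stood at 244 and 547 CPM in the anti-PD-1 pool, against 7.75 and 128 CPM in the no-anti-PD-1 pool, but 1 cell held 40.4% of its molecules and without it the gene no longer passed. Il10, an anti-inflammatory cytokine gene, stood at 1257 and 159.6 CPM in the anti-PD-1 pool, against 2597 and 2120.1 CPM in the no-anti-PD-1 pool, and was seen in 35 of 66, 4 of 8, 18 of 35 and 3 of 15 cells. Il10 also passed as lower in Arg1-low cells, with a log2 ratio of -1.48. Arg2 stood at 2015 and 1983 CPM in the anti-PD-1 pool, against 2992 and 3471 CPM in the no-anti-PD-1 pool, just short of the rule, and Il4ra had a log2 ratio of -0.20. Among inflammatory cytokines Tnf alone of 11 genes passed, as lower, with a list median of 0.01. Tnf stood at 1495 and 1413 CPM in the anti-PD-1 pool, against 2845 and 3961 CPM in the no-anti-PD-1 pool, and without the cell richest in it, of tag 2, the log2 ratio was -0.81 and it did not pass. Il1a and Il1rn had log2 ratios of 0.48 and 0.05.

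Of the proliferation genes, Pcna, Top2a and Aurkb passed as lower among 7 genes and 0 passed as higher, with a list median of -1.05. Pcna, the replication clamp, stood at 791.2 and 433 CPM in the anti-PD-1 pool, against 1519 and 1316 CPM in the no-anti-PD-1 pool, a log2 ratio of -1.21. Top2a, a topoisomerase of dividing cells, stood at 336 and 114 CPM in the anti-PD-1 pool, against 609 and 1339.6 CPM in the no-anti-PD-1 pool, and Aurkb, a mitotic kinase, at 65.0 and 68.4 CPM in the anti-PD-1 pool, against 112 and 163 CPM in the no-anti-PD-1 pool. With TMM scaling Top2a alone of these passed, and without the cell richest in Aurkb that gene did not pass. Cells with at least 5 molecules of Mki67, Top2a, Ube2c, Aurkb and Tyms summed were 37.9 and 25% of members in tags 3 and 4, against 51.4 and 20% in tags 1 and 2. That share had no order by pool. In Arg1-low cells the log2 ratio of Pcna was -0.08.

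The other lower genes among the 10 with the widest gap between nearest tags were Xcl1, Il2rb, Cst7, Il3ra, S100a9, Bcl6 and Dusp2. Xcl1, a chemokine gene of NK and T cells, had 0 molecules in tags 3 and 4, against 108 and 110 molecules in 1 cell each of tags 1 and 2. Those cells held 146 and 144 molecules of NK cell markers, with 21 and 29 of Nkg7. Il2rb, a chain of the interleukin-2 receptor, had 2 and 1 molecules with anti-PD-1, against 22 and 9 without, and Il3ra, a chain of the interleukin-3 receptor, had 4 and 1 with anti-PD-1, against 13 and 14 without. S100a9, a calcium-binding protein gene of neutrophils, stood at 69.5 and 22.8 CPM in the anti-PD-1 pool, against 182 and 139.8 CPM in the no-anti-PD-1 pool, far under the 5989 to 6922 CPM of cells with high S100a8. Cst7, which encodes cystatin F, had 17 and 0 molecules with anti-PD-1, against 54 and 14 without. The transcriptional repressor gene Bcl6 had a log2 ratio of -1.23, and Dusp2, a phosphatase gene and the only one of 10 immediate early genes that passed, one of -2.06. Ly96, Ybx3, Nkg7 and Thy1, named after their values were seen, completed the 19. Kit, a growth factor receptor gene, and the cyclin gene Ccnd2 completed the 7 higher genes, with 35 and 2 molecules with anti-PD-1, against 7 and 2 without, for Kit, and 20 and 3 with anti-PD-1, against 7 and 1 without, for Ccnd2.

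No gene passed in the scavenger (9 measured), matrix (7), surface (13), costimulation (10) and interferon (8) lists, whose median log2 ratios were -0.11, -0.31, 0.09, -0.10 and -0.22. With TMM scaling the scavenger and costimulation medians turned to 0.10 and 0.11, and 1 gene in each passed as higher. Spp1 stood at 38202 and 50153 CPM in the anti-PD-1 pool, against 34571 and 25767 CPM in the no-anti-PD-1 pool, and Mmp12 at 25434 and 25168 CPM in the anti-PD-1 pool, against 25051 and 40689.6 CPM in the no-anti-PD-1 pool. Lgals1 stood at 29401 and 12789 CPM in the anti-PD-1 pool, against 36245 and 56148 CPM in the no-anti-PD-1 pool, and Fn1 at 21158 and 35175 CPM in the anti-PD-1 pool, against 19741 and 9319 CPM in the no-anti-PD-1 pool. The pools overlapped for Mmp12, and the nearest tags were under 1.5-fold apart for Spp1, Lgals1 and Fn1. Lyz2, Cd14, Cd274, Lgals9 and Ifitm3 had log2 ratios of 0.14, 0.63, -0.19, -0.11 and -0.21. Among 11 chemokines Xcl1 alone passed, with a list median of -0.38, and Cxcl2 and Cxcl1 had ratios of 0.56 and -0.54. The immediate early list had a median of -0.62, with -0.20 for Btg1 and -0.16 for Fosb.

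Markers of other cell types were counted in the members, as cells with at least 5 molecules of a list. NK cell markers reached this in 5 of 124 Arg1-high cells, against 1 of 103 Arg1-low cells. Without the C1q cells that reached it, 119 members were left and 10 of the 19 lower genes still passed between pools, the 9 others being Aurkb, Dusp2, Il10, Il2rb, Nkg7, Thy1, Top2a, Xcl1 and Ybx3, while all 7 higher genes still passed. NK markers summed to 26.9, 0, 671 and 1689 CPM in members, and Klra7, Klra1 and Prf1 were at 0 in all of them. Epithelial markers (Epcam, Cdh1 and Msln, measured in tags 3, 4 and 2) reached it in 30 of 89 Arg1-high cells (33.7%), against 14 of 68 Arg1-low cells (20.6%). Epcam, the epithelial adhesion molecule used to sort the fractions, stood at 1728, 84.3 and 2567 CPM in Arg1-high cells of tags 3, 4 and 2, against 761, 0 and 999.6 CPM in Arg1-low cells. Neutrophil markers other than S100a8 reached it in 26 of 124 members, against 8 of 103 Arg1-low cells, and summed to 1912, 68.4, 5725 and 2423 CPM in members, against 287, 392, 410.1 and 347 CPM in Arg1-low cells, with Elane at 0 in members of tags 3, 4 and 2. These markers include Mmp9, which is also in the matrix list. At least 5 Mmp9 molecules were held by 12 of 66, 0 of 8, 6 of 35 and 5 of 15 members. In Arg1-low cells this was 1 of 44, 0 of 10, 0 of 35 and 1 of 14. S100a9 was seen in 9 of 66, 1 of 8, 18 of 35 and 7 of 15 members. The Arg1-low counts of S100a9 were 13 of 44, 2 of 10, 9 of 35 and 4 of 14. T cell markers outside the rule reached 5 molecules in 41 of 124 members, against 21 of 103 Arg1-low cells, but the summed level was 578, 547, 667 and 594 CPM in members, against 912, 1253, 410.1 and 529.7 CPM. Of these 14 genes, 1, 12, 7 and 7 were at 0 in members, against 3, 5, 9 and 9 in Arg1-low cells. Foxp3, Trac and Trdc were at 0 in members of tags 4, 1 and 2, and only Cd28 and Il7r were seen in tag 4. Dendritic cell markers reached 5 molecules in 92 of 124, against 73 of 103, and summed to 2811, 1915, 4923 and 2074 CPM in members, against 3395, 1566, 3261 and 7014 CPM. Of the 9 markers, 1, 7, 2 and 2 were at 0 in members, among them Itgae in tags 4, 1 and 2. B cell markers reached it in 8 of 124, against 13 of 103, mast cell markers in 3 of 124, against 4 of 103, and stromal markers in 4 of 124, against 2 of 103. The members were the deeper class, so a count of 5 molecules is reached more easily in them. The part of these cells in the differences above was not tested beyond the removals given here and in the closing section.

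Within the members, Arg1 and class II ran in opposite directions. The Spearman correlation between the Arg1 share and the class II share of a cell was -0.50 over 66 members of tag 3 and -0.37 over 35 members of tag 1. The cells of a tag share 1 library and the shares are parts of 1 total, so the values are a description. Arg1 had correlations of -0.08 and -0.04 with C1qb and of 0.05 and 0.02 with the number of molecules. Of 152 genes seen in at least 50% of members in both tags, 103 had the same sign in tags 3 and 1, 1 reached 0.3 in both, and 7 were at or under -0.3 in both. The gene with a positive value was Mmp12, with 0.34 and 0.35. The 7 negative ones were H2-DMa (-0.52 and -0.49), Tlr2 (-0.35 and -0.65), H2-Aa (-0.49 and -0.35), H2-Eb1 (-0.53 and -0.35), Myd88 (-0.33 and -0.43), Ccr2 (-0.32 and -0.43) and Cd74 (-0.30 and -0.42). Tlr2 is a receptor for bacterial lipoproteins and Myd88 its signalling adaptor. Hmox1 had 0.27 and 0.34. H2-Aa itself was lower in deeper cells, with correlations of -0.48 and -0.40 with the number of molecules. Arg1 showed no such relation to depth.

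Of the 72 genes measured in tags 3, 4 and 2 alone, the following were chosen after their values had been seen, or belong to the lists. Not every list gene is described. Nos2 encodes the inducible nitric oxide synthase, which uses the same substrate as arginase. It stood at 1639.5, 3710.5 and 3609 CPM in Arg1-high cells of tags 3, 4 and 2, against 254, 95.2 and 180.3 CPM in Arg1-low cells. It was higher in Arg1-high cells in all 3 tags, and 15 of 66, 5 of 8 and 8 of 15 of them held at least 5 molecules, against 5 of 44, 0 of 10 and 0 of 14 Arg1-low cells. Cells with high S100a8 had 1608, 1704 and 2130.4 CPM of Nos2. Rnase2a, a ribonuclease gene, stood at 468, 2002.8 and 2651 CPM in Arg1-high cells of tags 3, 4 and 2, against 12.9, 0 and 0 CPM in Arg1-low cells, with 38.6% of the molecules of members in 1 cell. The mannose receptor gene Mrc1 stood at 2597, 2298 and 4156 CPM in Arg1-high cells of tags 3, 4 and 2, against 2511, 1785 and 2065 CPM in Arg1-low cells, which is 1.03-, 1.29- and 2.01-fold higher.

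Genes lower in Arg1-high cells in all 3 tags included Aif1, Cfb, Cd83 and Siglec1. The list is not complete. Ms4a4c, Mgl2, Fpr2, Olfm1, Slc7a11, Tlr6 and Csf3r, among others, were also lower in each of these tags. This direction was therefore not particular to the genes described here. Aif1, which encodes the macrophage protein Iba1, stood at 2944, 2214 and 1894 CPM in Arg1-high cells of tags 3, 4 and 2, against 4334, 7400.4 and 6768 CPM in Arg1-low cells. Cfb, complement factor B, stood at 2815, 2277 and 1252 CPM in Arg1-high cells of tags 3, 4 and 2, against 4540.2, 6425 and 3851 CPM in Arg1-low cells, and Cd83, a marker of mature antigen-presenting cells, at 2198, 1349 and 2346 CPM in Arg1-high cells of tags 3, 4 and 2, against 2722, 3569 and 5309 CPM in Arg1-low cells. Siglec1, which encodes the sialoadhesin CD169, stood at 98.6, 63.2 and 84.2 CPM in Arg1-high cells of tags 3, 4 and 2, against 155, 214 and 279 CPM in Arg1-low cells. Siglece encodes the antibody target Siglec-E. It stood at 47.3, 42.2 and 10.5 CPM in Arg1-high cells of tags 3, 4 and 2, against 112, 143 and 492 CPM in Arg1-low cells, and cells with high S100a8 had 553, 538 and 399 CPM. The members had 23, 2 and 1 molecules, in 15 of 66, 2 of 8 and 1 of 15 cells, against 26, 6 and 30 molecules in Arg1-low cells. In tag 4 the Poisson 95% intervals overlapped, at 5.11 to 152 CPM in Arg1-high cells, against 52.4 to 311 CPM in Arg1-low cells. These intervals cover counting error only, and the molecules of tag 4 sat in 2 cells of each class. The difference between the classes was not tested.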

How the data were processed

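Cells of 4T1 tumours were measured with the BD Rhapsody mouse immune response panel. The deposited tables hold counts of molecules per cell, which the authors produced with version 1.12.1 of the BD Rhapsody Targeted Analysis Pipeline and corrected for amplification errors by distribution-based error correction, per the file headers. The submitters' processing notes name Seurat 3.2.0. Which aligner was run, and on which genome build, is not given in the sources used here. The reference of tag 1 held 396 genes and that of tags 2 to 4 held 468 genes; all comparisons of 4 tags use the 396 shared genes, and the 72 others were read in tags 2 to 4. Tags had been assigned before deposit, no cell filter beyond the rule was used, and no doublets were removed.

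Molecules were summed per tag and class and divided by the shared-gene total (CPM). The members and gene lists were chosen with earlier results of these data known. Each group is 1 sample, so ratios carry no test; a gene needed at least 30 molecules and 1.5-fold, for a tag with no molecule a floor of 3 counts was used, and it never counted as higher, and Poisson and Clopper-Pearson 95% intervals cover counting error only. Named are the label markers, the 10 genes of each direction that passed with the widest margin, and in each role list the genes that passed and its 2 most abundant. Thinning used a fixed seed. Calculations used Python 3.11.15, numpy 2.4.6, pandas 2.3.3 and scipy 1.17.1, figures matplotlib 3.10.9, and TMM scaling edgeR 4.0.16 in R 4.3.3. The calling rule was tried on simulated Poisson counts per tag. These held no spread between cells, so they do not cover genes carried by single cells. Coordinates are from GENCODE M21 (GRCm38).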

Additional observations from a re-analysis of the deposited data

How the results depend on the processing

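The pool difference in the share of Arg1-high cells, 1.36 percentage points of C1q cells, reversed to -3.37 with an Arg1 minimum of 0.005, -1.40 with 10 C1q molecules, -3.45 with a C1q fraction of 0.002, -0.441 as a share of all cells, -1.31 as a share of cells with S100a8 under 0.05, -6.42 without tag 3, and -2.37 without cells with 5 or more molecules of Epcam, Cdh1 and Msln. The last alternative, in tags 2 to 4, and removal of NK-marker cells were chosen after seeing the data.

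The counts of genes (Arg1-high over Arg1-low: 2 higher, 5 lower; pools: 7 higher, 19 lower) moved as follows. Arg1 0.005 gave 8 lower between classes. Arg1 0.02 gave 1 higher and 12 lower between classes and 11 higher between pools. A C1q fraction of 0.002 gave 4 higher between classes and 11 between pools. S100a8 under 0.02 gave 4 higher and 14 lower between classes. Without the 5% deepest cells 55 members were left, with 5 higher and 3 lower between classes and 11 higher and 9 lower between pools; of the genes named above these included 1 of 2 and 1 of 5, and 3 of 7 and 4 of 19, and Ccl6, Havcr2, Mcm4, H2-DMa, Chil3 and Top2a were among those that did not pass. TMM gave 5 and 3, and 13 and 12. The mean over cells gave 4 higher between classes. A minimum of 100 molecules gave 3 lower between classes and 12 lower between pools. A 2-fold rule gave 1 and 2, and 2 and 7. Leaving out 1 tag relaxes the rule by 1 comparison. It gave 6 and 13 without tag 1, 4 and 12 without tag 2, 8 and 15 without tag 3, and 7 and 13 without tag 4 between classes. Between pools it gave 35 and 46 without tag 1, 39 lower without tag 2, 16 and 56 without tag 3, and 15 higher without tag 4. Removal of NK-marker cells gave 9 lower between classes. Removal of epithelial-marker cells left 59 members and gave 8 and 19 between classes and 32 and 33 between pools, in 3 tags. Of the genes named above these included 2 of 2 and 2 of 5 between classes, and 5 of 7 and 7 of 19 between pools. Mcm4 between classes, and Il10, Slc11a1 and Top2a between pools, were among those no longer included. The causes of these moves were not tested.

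Cxcl9 passed as lower between classes in all 18 alternatives, as did H2-Eb1 and H2-Aa (higher) and Hmox1 and Fcna (lower) between pools. Tnfrsf9 passed in 17 of 18 and Ccl6 in 15 of 18, Cd74 in 17 and H2-DMa in 15 of 18, Havcr2 and Mcm4 in 12 of 18, Slc11a1 in 14 of 18 and Aurkb in 8 of the 15 that measured it. These tallies include alternatives that could not fail. Leaving out 1 tag only loosens the rule, and a minimum of 10 or 100 molecules per gene changes no ratio. A gene that had passed therefore passed again in them wherever it was measured. Kit turned to -0.56 with Arg1 0.005, and Il10 to 0.16 with Arg1 0.02 and 0.58 without the deepest cells (log2, pools). No paired analysis was possible because each pool is 1 sample and the groups share fewer than 2 replicate numbers. The 8 members of tag 4 and the 15 of tag 2 limit what can be detected, and treatment cannot be told apart from cartridge.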
